A study of Mus musculus with 6 samples.

Results

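The genes described here encode the splicing machinery: the proteins of small nuclear ribonucleoproteins (snRNPs), their Lsm relatives, the SF3 and U2AF factors that mark the 3′ end of an intron, and the SR and hnRNP proteins that steer splice site choice. They were chosen by symbol, as all genes whose name starts with Snrp, Lsm, Sf3a, Sf3b, U2af, Srsf or Hnrnp followed by the usual number or letter, and 69 of the 17067 listed genes qualified. Their transcripts were measured in colon macrophages of Gsdmd-/- and WT mice, 3 samples of each genotype, which had been sorted on the surface proteins CD45, CD11b and F4/80. All mice were C57BL/6, 10 weeks of age, and carried colitis induced with dextran sulfate sodium (DSS), so no sample without colitis is part of the comparison. Gsdmd encodes gasdermin D, the pore-forming protein of pyroptosis, and the question asked of each gene was whether its level differed between macrophages lacking Gsdmd and WT macrophages under the same DSS treatment.

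Introns are removed by the spliceosome, which is built from snRNPs, each made of a small nuclear RNA, a ring of Sm or Lsm proteins and proteins particular to that snRNP. U1 snRNP pairs with the 5′ splice site, U2AF binds the pyrimidine tract and the AG at the 3′ end, and U2 snRNP with its SF3A and SF3B subcomplexes then settles on the branch point. SR proteins mostly recruit this machinery to exons, many hnRNP proteins oppose them or bind introns, and in macrophages the balance between them is known to shape the splicing of inflammatory transcripts.

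Values are read counts per length of transcript and per depth of library (FPKM), a reading made from the values because no header names their unit, and the depth of each sample is unknown. Sums of FPKM were 551502 to 565388 in Gsdmd-/- samples and 476271 to 485411 in WT samples. Gsdmd itself stood at 28.5, 29.0 and 29.7 FPKM in Gsdmd-/- samples, against 97.7, 99.4 and 97.4 FPKM in WT samples, so that transcript was reduced and not at 0. All 8 macrophage markers were present, with summed levels of 8900 to 9000 FPKM in Gsdmd-/- and 7960 to 8460 FPKM in WT samples. Of these 8, 3 rose (C1qa, Cd68 and Lyz2) and 5 fell, among them the genes of the sorting gate, Itgam (CD11b, −0.94), Ptprc (CD45, −0.67) and Adgre1 (F4/80, −0.43), and in the fit with the length and GC trend removed, described below, 0 rose and 5 fell. Of the markers of other cells, the 8 of fibroblasts summed to 82.2 to 84.1 FPKM in Gsdmd-/- and 30.2 to 31.8 FPKM in WT samples, and all 6 that could be tested rose. The 8 of proliferating cells summed to 347 to 357 FPKM in Gsdmd-/- and 297 to 300 FPKM in WT samples, with 6 rises and 1 fall, and of the 5 of endothelium Kdr fell, at 26.2 ± 2.30 FPKM in Gsdmd-/- and 56.4 ± 1.59 FPKM in WT samples (SD, n = 3 each), Cdh5 (0.13) and Vwf (−0.03) did not pass and Pecam1 and Tie1 were too low to test. Sums were at most 10.5 FPKM in any sample for T cell, 6.52 FPKM for neutrophil, 3.46 FPKM for epithelial and 0.80 FPKM for B cell markers, and no listed marker was at 0 in all samples. These sums are partial, since 4 of 8 epithelial, 2 of 7 T cell and 1 of 8 neutrophil markers were not among the listed genes. Of those that could be tested, Cd4 (0.52), Lck (0.63) and Cxcr2 (0.33) rose and Cdh1 (−0.52) fell. The part of other cells in the results below was not tested. In bulk samples, fewer cells of a type and less RNA per cell cannot be told apart. The labels do not say that samples of a genotype came from separate mice, so a p-value here reflects the spread among samples, which may be technical, and an exact permutation test of 3 against 3 cannot go below 0.1.

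Of the 69 genes, 65 passed the filter, which asked for 1 FPKM or more in 3 or more samples. The other 4 were Snrpn, the neuronal relative of Snrpb, at 0.05, 0.07 and 0.07 FPKM in Gsdmd-/- and 0, 0 and 0.02 FPKM in WT samples, Srsf12, listed at 0 in 5 samples, Lsm11 at 0.65 ± 0.145 FPKM in Gsdmd-/- and 0.77 ± 0.141 FPKM in WT samples (SD, n = 3 each), and the pseudogene Hnrnpa1l2-ps2, at 0.14 FPKM or less throughout. Each gene was tested with limma on log2(FPKM + 1), the p-value was adjusted by Benjamini-Hochberg over all 10005 tested genes, and a gene with an adjusted p under 0.05 is said to have risen or fallen in Gsdmd-/- macrophages. A positive log2 change is a higher level in Gsdmd-/- than in WT samples, and because 1 is added before the log the change of weakly expressed genes is understated.

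The snRNP and Lsm genes stood higher in Gsdmd-/- macrophages, the SR and hnRNP genes stood mostly lower, and the SF3 and U2AF genes were divided. Of the 23 tested snRNP and Lsm genes, 19 rose and 1 fell, with a median log2 change of 0.45. Of the 30 tested SR and hnRNP genes, 6 rose and 16 fell, with a median of −0.11. Of the 12 SF3 and U2AF genes, 8 rose and 2 fell, with a median of 0.35. The background was broad, since 40.6% of all tested genes rose and 36.9% fell, with a median log2 change of 0.03. In 51 of the 65 genes the samples of the 2 genotypes did not overlap, which held for 79.4% of all tested genes.

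Sums of FPKM differed between the genotypes, and rescaling each sample to the same sum (TPM) moved the median of all genes to −0.17 from 0.03. On that scale 25.0% of all tested genes rose and 51.0% fell. The snRNP and Lsm genes then had 15 rises and 4 falls with a median of 0.24, the SR and hnRNP genes 1 rise and 23 falls with a median of −0.33, and the SF3 and U2AF genes 7 rises and 4 falls with a median of 0.13. The sign of each median was the same on both scales. The order of the 3 groups was too, but rescaling moves all genes by nearly the same amount. That order could therefore hardly change and is not a separate check.

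A second adjustment bears on every result below. Across all tested genes the log2 change ran with transcript length, at a Spearman correlation of −0.62 over 9852 genes, and over the 65 splicing genes it was −0.69. It also ran with GC content, at 0.49 over the same 9852 genes and 0.37 over the 65 splicing genes. Genes share these 6 libraries and are not independent points, so the correlations are descriptions. A smooth trend on length and GC content was therefore subtracted from each sample before a second fit, in which 31.3% of all genes rose and 30.5% fell. With the trend removed, the snRNP and Lsm genes had 14 rises and 4 falls with a median of 0.24, the SR and hnRNP genes 7 rises and 18 falls with a median of −0.16, and the SF3 and U2AF genes 6 rises and no fall with a median of 0.08. Values of this second fit are given below as values with the trend removed.

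**Figure D1:**
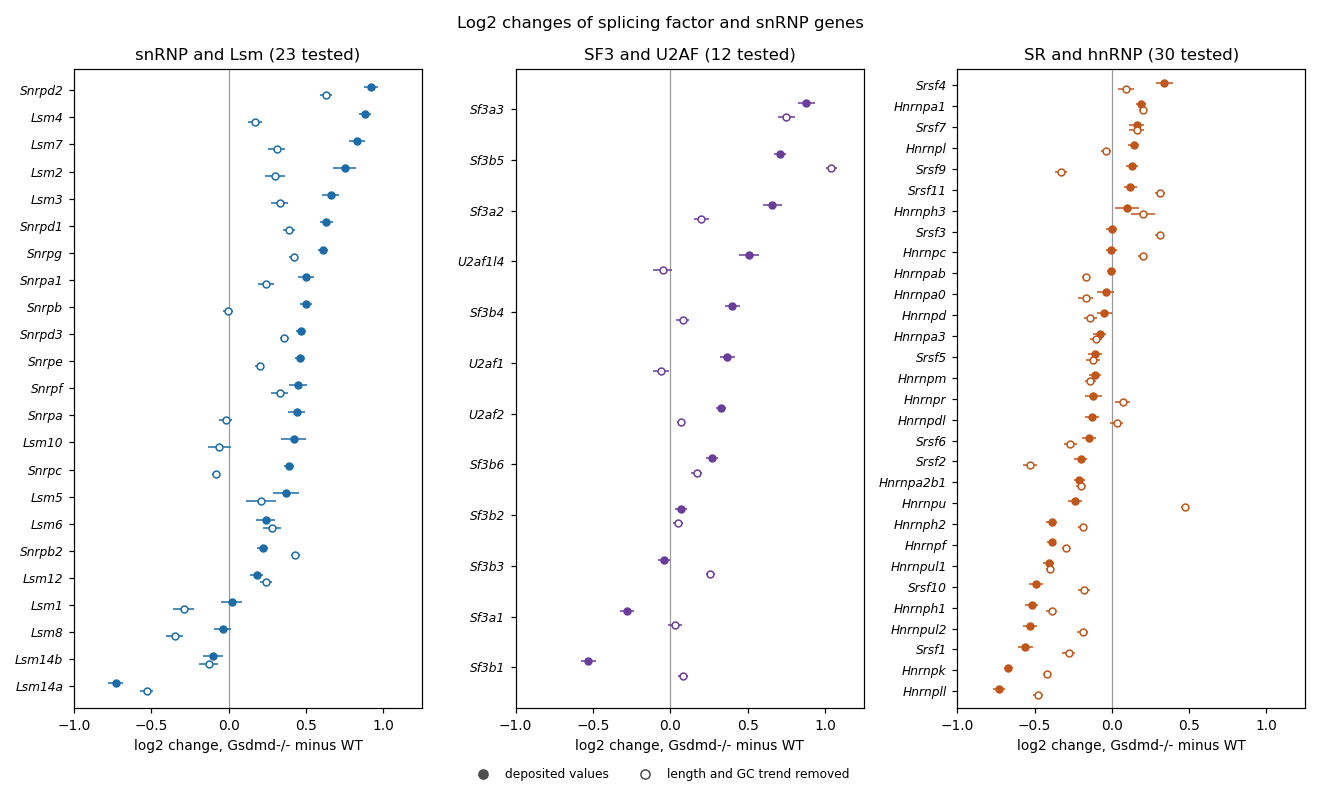
Log2 change (Gsdmd-/- minus WT, log2(FPKM + 1) scale) of each of the 65 tested genes, before (filled points) and after (open points) the trend on transcript length and GC was removed, with bars of 1 standard error. The snRNP and Lsm genes lie mostly to the right of 0 with a median of 0.45, and the SR and hnRNP genes mostly to its left with a median of −0.11.

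The sequence upstream of 5 genes is shown as a description, 1 for each group and direction where a gene qualified. Whether genes of a group share regulation was not tested. Each had a single RefSeq promoter entry and at most 30 bases of its own annotated exons in the window. No rising SF3 or U2AF gene met this. Of the genes considered that met this, each had the largest rise or fall in its group. Snrpd1 (0.63), which rose more than Snrpe (0.46), was not considered. The 150 bases before the transcript start of that entry are printed 5′ to 3′ on the gene's strand, in GRCm38.p6, for Snrpe (chr1:133610281-133610430, minus strand) and Hnrnpa1 (chr15:103240247-103240396, plus strand), which rose, and for Lsm14a (chr7:34389706-34389855, minus strand), Sf3b1 (chr1:55027479-55027628, minus strand) and Hnrnpk (chr13:58402118-58402267, minus strand), which fell. That start lies inside the RefSeq span of the gene for Hnrnpa1, Hnrnpk, Lsm14a and Sf3b1, so part or all of those 4 windows is inside the span, and the window of Snrpe lies just before it. Capitals mark the motifs searched on both strands, which were the ETS core CCGGAAG, the NRF1 motif GCATGCGC, the GC box GGGCGG, the CCAAT box CCAAT and the TATA box TATAAA.
Snrpe: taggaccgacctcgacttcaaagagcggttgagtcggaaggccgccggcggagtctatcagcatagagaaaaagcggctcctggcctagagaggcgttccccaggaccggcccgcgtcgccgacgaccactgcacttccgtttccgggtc
Lsm14a: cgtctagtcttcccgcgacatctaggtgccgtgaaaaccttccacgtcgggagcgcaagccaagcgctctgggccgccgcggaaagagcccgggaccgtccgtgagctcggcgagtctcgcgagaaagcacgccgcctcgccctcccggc
Sf3b1: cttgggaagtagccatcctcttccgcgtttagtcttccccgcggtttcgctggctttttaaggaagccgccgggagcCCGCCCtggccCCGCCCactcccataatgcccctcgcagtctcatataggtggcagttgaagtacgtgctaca
Hnrnpa1: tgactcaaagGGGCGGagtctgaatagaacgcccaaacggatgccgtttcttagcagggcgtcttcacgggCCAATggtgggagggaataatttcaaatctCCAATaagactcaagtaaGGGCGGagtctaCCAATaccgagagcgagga
Hnrnpk: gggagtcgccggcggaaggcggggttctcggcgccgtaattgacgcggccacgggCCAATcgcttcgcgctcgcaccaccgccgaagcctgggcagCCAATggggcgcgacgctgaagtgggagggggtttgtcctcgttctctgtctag
Matches did not overlap one another in these windows. Hnrnpa1 held 2 GC boxes and 3 CCAAT boxes, Hnrnpk 2 CCAAT boxes and Sf3b1 2 GC boxes, while these letters were not found in the windows of Snrpe and Lsm14a.

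Promoter entries were found for 59 of the 69 genes, counting a motif where at least 1 window of the gene held it. The GC box was found in 10 of 20 snRNP and Lsm genes, 21 of 30 SR and hnRNP genes and 4 of 9 SF3 and U2AF genes, and in 28.6% of all 32851 windows. The CCAAT box was found in 6 of 20, 16 of 30 and 2 of 9 genes of those groups, and in 24.5% of all windows. The ETS core was found in 3 of 20, 3 of 30 and 5 of 9 genes (5.52% of all windows), the NRF1 motif in 3 of 20, 2 of 30 and 1 of 9 (1.82%), and the TATA box in 0 of 20, 2 of 30 and 1 of 9 (7.57%). The shares of genes and of windows are not on the same base, since some genes have several windows, and a match is a description of these letters.

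In the Sm ring, the set of proteins loaded on U1, U2, U4 and U5 RNA, 7 of 7 genes rose. Log2 changes were 0.45 to 0.92. Of all tested genes 40.6% rose, but 85.7% of those up to 1000 bases and 66.0% of those from 1000 to 2000 bases. The Sm ring genes had a median annotated transcript of 1060 bases. Their summed level was 501 to 512 FPKM in Gsdmd-/- samples and 331 to 346 FPKM in WT samples. Snrpd2 (chromosome 7, 19149445 to 19152734) had the largest rise, with 89.3, 96.3 and 86.3 FPKM in Gsdmd-/- samples against 44.7, 48.8 and 48.3 FPKM in WT samples. All Gsdmd-/- samples lay above all WT samples, and its log2 change was 0.92 (SE 0.0461, limma adjusted p = 7.84e-09) or 0.63 with the trend removed. Snrpd1 had 49.5, 47.8 and 49.2 FPKM in Gsdmd-/- samples against 31.4, 32.6 and 29.5 FPKM in WT samples, a log2 change of 0.63 (SE 0.0418, limma adjusted p = 5.91e-08). Snrpg had 65.5, 63.9 and 65.3 FPKM in Gsdmd-/- samples against 41.0, 42.2 and 43.2 FPKM in WT samples, a log2 change of 0.61 (SE 0.0337, limma adjusted p = 1.48e-08). Neither gene's genotypes overlapped, and with the trend removed the changes were 0.39 and 0.42. Snrpd3 (0.47), Snrpe (0.46) and Snrpf (0.45) rose by like amounts and kept 0.36, 0.20 and 0.33 with the trend removed, each past the threshold. Snrpb, which encodes SmB, stood highest of the ring, at 129, 129.7 and 130.0 FPKM in Gsdmd-/- samples against 88.1, 98.0 and 88.9 FPKM in WT samples. It rose by 0.50 on the deposited values, whereas with the trend removed its log2 change was −0.00465 (limma adjusted p = 0.903). Pseudogene copies at 95% identity or more exist for Snrpd1, Snrpd2, Snrpe, Snrpf and Snrpg, and Snrpd3 and Snrpf share exon bases with the opposite-strand genes Gucd1 and Ccdc38, so reads of these genes are uncertain in how they were assigned.

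Proteins particular to U1 and U2 snRNP rose too, in 4 of 4 genes: Snrpa1 (U2 A′) by 0.50, Snrpa (U1 A) by 0.44, Snrpc (U1 C) by 0.39 and Snrpb2 (U2 B″) by 0.22. Their median annotated transcript was 1290 bases, and 66.0% of all tested genes of 1000 to 2000 bases rose. Snrpc, which stabilises U1 at the 5′ splice site, had 108, 112 and 107 FPKM in Gsdmd-/- samples against 80.7, 86.6 and 81.2 FPKM in WT samples. The genotypes did not overlap, and the change passed the test (SE 0.035, limma adjusted p = 7.89e-07). With the trend removed Snrpc turned to −0.08, past the threshold in the other direction (limma adjusted p = 0.0146), and Snrpa stood at −0.02 without passing. Snrpb2 and Snrpa1 rose under both fits, Snrpb2 by 0.43 and Snrpa1 by 0.24 with the trend removed. Snrpb2 was the gene of this set that depended on scale in the other way, since its log2 change was 0.00452 on the TPM scale.

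The Lsm2 to Lsm8 ring, which holds the end of U6 RNA, rose in 6 of its 7 genes, and Lsm8, the subunit that distinguishes the nuclear ring from the cytoplasmic one, did not pass. Median annotated transcript length in this ring was 680 bases, and 85.7% of all tested genes of up to 1000 bases rose. The ring's summed level was 195 to 196 FPKM in Gsdmd-/- samples and 120 to 124 FPKM in WT samples. Lsm4 had 62.3, 67.4 and 65.6 FPKM in Gsdmd-/- samples against 35.6, 34.7 and 34.2 FPKM in WT samples, a log2 change of 0.88 (SE 0.038, limma adjusted p = 2.85e-09). Lsm7 had 34.5, 34.1 and 34.2 FPKM in Gsdmd-/- samples against 20.6, 17.9 and 18.1 FPKM in WT samples, a log2 change of 0.83. Lsm2 had 32.7, 34.1 and 30.5 FPKM in Gsdmd-/- samples against 17.1, 21.7 and 18.3 FPKM in WT samples, a log2 change of 0.75. In all 3 the Gsdmd-/- samples lay above every WT sample, and with the trend removed the changes were 0.17, 0.31 and 0.30, each still past the threshold. Lsm3 (0.66), Lsm5 (0.37) and Lsm6 (0.24) rose as well, but Lsm5 no longer passed with the trend removed (0.21, limma adjusted p = 0.0858), and neither Lsm5 (0.17) nor Lsm6 (0.06) passed on the TPM scale. Lsm8 had 14.3, 14.9 and 14.5 FPKM in Gsdmd-/- samples against 15.98, 13.8 and 15.5 FPKM in WT samples, which overlap (log2 change −0.04, limma adjusted p = 0.487). Lsm1, which takes the place of Lsm8 in the cytoplasmic ring that promotes mRNA decay, also overlapped, at 5.95 ± 0.606 FPKM in Gsdmd-/- and 5.82 ± 0.0361 FPKM in WT samples (SD, n = 3 each). Both Lsm8 (−0.35) and Lsm1 (−0.29) fell once the trend was removed, and both also fell on the TPM scale (−0.26 and −0.18).

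The other Lsm genes did not move as one. Lsm10, part of the U7 snRNP that processes histone mRNA, rose by 0.42 but stood at −0.06 with the trend removed, and Lsm12 rose by 0.18 and by 0.24 with it removed but was at −0.04 on the TPM scale. Lsm14a, a component of processing bodies where untranslated mRNA gathers, was the one gene of the snRNP and Lsm group that fell. It had 30.1, 27.4 and 31.5 FPKM in Gsdmd-/- samples against 51.1, 48.7 and 49.6 FPKM in WT samples. The genotypes were well apart, with a log2 change of −0.73 (SE 0.0486, limma adjusted p = 6.23e-08), or −0.53 with the trend removed. Lsm14b, its relative, did not pass, at 4.05 ± 0.30 FPKM in Gsdmd-/- and 4.40 ± 0.0611 FPKM in WT samples (SD, n = 3 each). It fell on the TPM scale (−0.30).

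**Figure D2:**
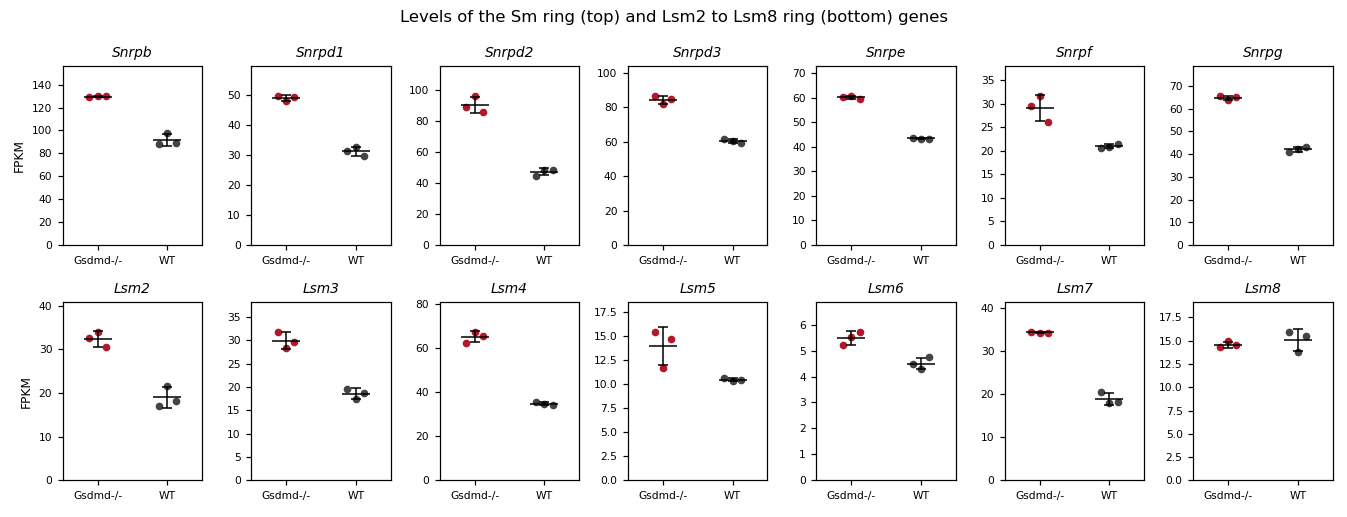
FPKM of the 7 Sm ring genes (top) and the 7 Lsm2 to Lsm8 genes (bottom) in each Gsdmd-/- (red) and WT (grey) sample, with the mean and SD of 3 samples, each panel on its own axis from 0. All Gsdmd-/- samples lie above all WT samples in every panel except that of Lsm8, where 14.3 to 14.9 FPKM in Gsdmd-/- samples overlap 13.8 to 15.98 FPKM in WT samples.

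SF3A and SF3B, the U2 snRNP subcomplexes that hold the branch point, were divided: of their 9 genes 5 rose, 2 fell and 2 did not pass. Shares over all tested genes were 40.6% rising and 36.9% falling. Sf3a3 (chromosome 4, 124714861 to 124732423) had 26.3, 25.4 and 26.4 FPKM in Gsdmd-/- samples against 13.7, 12.5 and 14.8 FPKM in WT samples, a log2 change of 0.88 (SE 0.056, limma adjusted p = 4.27e-08). Sf3a2 had 68.2, 71.5 and 59.4 FPKM in Gsdmd-/- samples against 39.7, 43.7 and 41.5 FPKM in WT samples, a log2 change of 0.66. Both were higher in every Gsdmd-/- sample than in any WT sample, and the rises stood at 0.75 and 0.20 with the trend removed. Sf3b5, a small subunit of SF3B, had 71.1, 77.2 and 74.9 FPKM in Gsdmd-/- samples against 44.8, 44.4 and 45.9 FPKM in WT samples, with a log2 change of 0.71. With the trend removed it was 1.04, a value that rests on an annotated median transcript of 3841 bases, more than the 734 bases the gene spans in RefSeq, and with length held to that span it was 0.43. Sf3b4 rose by 0.40 and did not pass with the trend removed (0.08, limma adjusted p = 0.115). Sf3b6, which touches the branch point adenosine, rose by 0.27 and by 0.17 with the trend removed, and was at 0.06 without passing on the TPM scale.

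Sf3b1, the large SF3B scaffold and a frequent mutation site in blood cancers, had 38.1, 36.6 and 40.7 FPKM in Gsdmd-/- samples against 58.9, 52.5 and 57.0 FPKM in WT samples. It was lower in every Gsdmd-/- sample, with a fall of 0.53 in log2 (SE 0.0497, limma adjusted p = 1.16e-06), whereas with the trend removed it rose by 0.08 (limma adjusted p = 0.0437). Sf3a1 had 10.4, 10.1 and 10.1 FPKM in Gsdmd-/- samples against 12.9, 12.6 and 12.4 FPKM in WT samples, again without overlap. It fell by 0.28 and stood at 0.03 with the trend removed, which did not pass. Median annotated transcripts were 6195 bases for Sf3b1 and 4920 bases for Sf3a1, and 62.6% of all tested genes above 3000 bases fell. Sf3b2 and Sf3b3 did not pass on the deposited values, with log2 changes of 0.07 and −0.04, and Sf3b3 rose by 0.26 with the trend removed and fell by 0.26 on the TPM scale.

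Each of the 3 U2AF genes rose on the deposited values and none passed with the trend removed. Their median annotated transcript was 984 bases, and 85.7% of all tested genes of up to 1000 bases rose. U2af1l4, a relative of the small subunit, had 27.7, 25.5 and 22.8 FPKM in Gsdmd-/- samples against 16.8, 17.0 and 18.6 FPKM in WT samples, a log2 change of 0.51. U2af1, the small subunit that reads the AG, had 46.2, 44.9 and 48.7 FPKM in Gsdmd-/- samples against 37.1, 37.6 and 33.3 FPKM in WT samples, a log2 change of 0.37. U2af2, the large subunit that binds the pyrimidine tract, had 70.4, 71.4 and 69.5 FPKM in Gsdmd-/- samples against 56.7, 56.8 and 54.2 FPKM in WT samples, a log2 change of 0.33 (SE 0.0327, limma adjusted p = 1.94e-06). The genotypes did not overlap in any of them, and with the trend removed the changes were −0.05, −0.06 and 0.07. U2af1l4 shares 1086 exon bases with Gm49396 on the same strand, and its value is uncertain for that reason.

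Among the SR genes, 4 rose and 5 fell of 10 tested, where 40.6% of all tested genes rose and 36.9% fell. Srsf1, a prototype SR protein that promotes use of nearby splice sites, had 11.96, 11.4 and 12.5 FPKM in Gsdmd-/- samples against 18.5, 17.4 and 18.4 FPKM in WT samples. Its level fell by 0.56 in log2 terms (SE 0.0502, limma adjusted p = 7.91e-07) and by 0.28 with the trend removed. Srsf10, which represses splicing when it loses its phosphates, had 15.5, 15.0 and 15.7 FPKM in Gsdmd-/- samples against 22.9, 21.9 and 21.5 FPKM in WT samples, and fell by 0.49 (0.18 with the trend removed, past the threshold). Srsf2 had 51.9, 48.4 and 47.8 FPKM in Gsdmd-/- samples against 57.7, 54.2 and 58.5 FPKM in WT samples, and fell by 0.20. None of these 3 genes overlapped between genotypes, and the fall of Srsf2 was larger with the trend removed, at −0.53. Srsf2 shares exon bases with Mettl23 and Mfsd11 on the other strand, and its value is uncertain where strand was not used in counting.

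The 4 SR genes that rose changed by 0.12 to 0.34 on the log2 scale. Srsf4 had 16.5, 16.9 and 16.3 FPKM in Gsdmd-/- samples against 13.8, 12.5 and 12.2 FPKM in WT samples, a log2 change of 0.34 (SE 0.0524, limma adjusted p = 7.32e-05), and 0.09 without passing once the trend was removed. Srsf7 had 22.9, 23.1 and 22.7 FPKM in Gsdmd-/- samples against 19.0, 21.1 and 21.1 FPKM in WT samples, a log2 change of 0.16 in both fits. Srsf9 had 30.9, 31.2 and 32.1 FPKM in Gsdmd-/- samples against 29.0, 29.1 and 27.8 FPKM in WT samples, a log2 change of 0.13. All 3 were higher in each Gsdmd-/- sample, but Srsf9 fell by 0.33 with the trend removed, and on the TPM scale Srsf7, Srsf9 and Srsf11 had log2 changes of −0.05, −0.09 and −0.09. Srsf11 rose by 0.12 and by 0.31 with the trend removed. Srsf3, whose protein couples splicing to export, was at 54.6 FPKM on average in both genotypes and rose by 0.31 only in the fit without the trend. Srsf6 fell by 0.15, and Srsf5 fell by 0.11 with samples that overlapped between genotypes.

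The hnRNP genes gave the most falls: 11 of 20 fell, 2 rose and 7 did not pass, and with the trend removed 12 fell and 4 rose. Over all tested genes 36.9% fell and 40.6% rose, or 30.5% and 31.3% with the trend removed. Hnrnpll, whose protein is known from T cells as a regulator of CD45 exon choice, had 21.4, 20.5 and 21.9 FPKM in Gsdmd-/- samples against 35.7, 35.4 and 36.7 FPKM in WT samples. Hnrnpk (chromosome 13, 58391132 to 58403343), a poly(C)-binding protein and the most abundant hnRNP transcript in WT samples, had 115, 116 and 121 FPKM in Gsdmd-/- samples against 187, 186 and 186 FPKM in WT samples. Hnrnpul2 had 34.1, 32.5 and 37.2 FPKM in Gsdmd-/- samples against 50.4, 49.7 and 50.9 FPKM in WT samples. In these 3 genes every Gsdmd-/- sample was below every WT sample. Their log2 changes were −0.73 (SE 0.0402, limma adjusted p = 1.44e-08), −0.67 (SE 0.0287, limma adjusted p = 2.85e-09) and −0.53 (SE 0.0461, limma adjusted p = 5.88e-07). In the second fit they were −0.48, −0.42 and −0.19, each past the threshold.

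Of the hnRNP F/H family, which binds runs of G, 3 of 4 genes fell, where 36.9% of all tested genes fell. Hnrnph1 fell by 0.52, with 25.8 ± 0.70 FPKM in Gsdmd-/- and 37.4 ± 1.54 FPKM in WT samples (SD, n = 3 each), and by 0.39 with the trend removed. Hnrnpf had 104.9, 108 and 106 FPKM in Gsdmd-/- samples against 144, 136 and 139 FPKM in WT samples, and fell by 0.39, or by 0.30 with the trend removed. Hnrnph2 fell by 0.39, or by 0.19 with the trend removed. Hnrnph3, at 5.66 ± 0.457 FPKM in Gsdmd-/- and 5.21 ± 0.537 FPKM in WT samples (SD, n = 3 each), did not pass. It rose by 0.20 with the trend removed. Hnrnpul1 fell by 0.41 and Hnrnpa2b1 by 0.21, and both kept −0.40 and −0.20 with the trend removed. The falls of Hnrnpdl (−0.13), Hnrnpm (−0.11) and Srsf5 (−0.11) each lost their call when single samples were left out. For Hnrnpdl these were replicate 1 of Gsdmd-/- (−0.10) and replicates 1 (−0.13) and 2 (−0.12) of WT. For both Hnrnpm and Srsf5 they were replicates 1 and 2 of Gsdmd-/- (−0.09 each) and replicates 1 (−0.08) and 3 (−0.11) of WT, and both also lost it without the filter on low values and without limma's trend and robust settings. Hnrnpm shares 1169 exon bases with March2 on the same strand, and its value is uncertain for that reason too.

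Hnrnpa1, a splicing repressor and shuttling protein, was one of the 2 hnRNP genes that rose. It had 103, 99.99 and 103.7 FPKM in Gsdmd-/- samples against 87.9, 87.9 and 92.5 FPKM in WT samples, a log2 change of 0.19 (SE 0.032, limma adjusted p = 1.58e-04), or 0.20 with the trend removed. Hnrnpl, which binds CA repeats, had 55.6, 59.1 and 57.9 FPKM in Gsdmd-/- samples against 50.5, 53.7 and 51.7 FPKM in WT samples, a log2 change of 0.14. Neither overlapped between genotypes, but on the TPM scale Hnrnpa1 was at −0.03 and Hnrnpl at −0.08, and with the trend removed Hnrnpl was at −0.04. Hnrnpu, a nuclear scaffold protein with a median annotated transcript of 7640 bases, had 51.7, 50.2 and 55.3 FPKM in Gsdmd-/- samples against 64.3, 58.6 and 62.7 FPKM in WT samples. It fell by 0.24 on the deposited values and rose by 0.47 with the trend removed (limma adjusted p = 1.74e-07), the widest turn of the 4 genes (with Sf3b1, Snrpc and Srsf9) that passed in opposite directions in the 2 fits. Hnrnpc, which covers uridine tracts, was level at 75.5 ± 2.02 FPKM in Gsdmd-/- and 75.7 ± 1.66 FPKM in WT samples (SD, n = 3 each). It rose by 0.20 with the trend removed and fell on the TPM scale (−0.22). Hnrnpa0, Hnrnpa3, Hnrnpab, Hnrnpd and Hnrnpr completed those that did not pass, with log2 changes from −0.12 to −0.00324. Each of them fell on the TPM scale (−0.33 to −0.22), where 51.0% of all tested genes fell. With the trend removed Hnrnpa0 (−0.17), Hnrnpab (−0.17) and Hnrnpd (−0.14) fell too. Copies at 95% identity or more were found for Hnrnpa1 (1 copy), Hnrnpa3 (21 copies), Hnrnpf (6 copies) and Hnrnpk (2 copies), among others, and Hnrnpk and Hnrnpu share exon bases with the opposite-strand genes Rmi1 and Cox20.

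**Figure D3:**
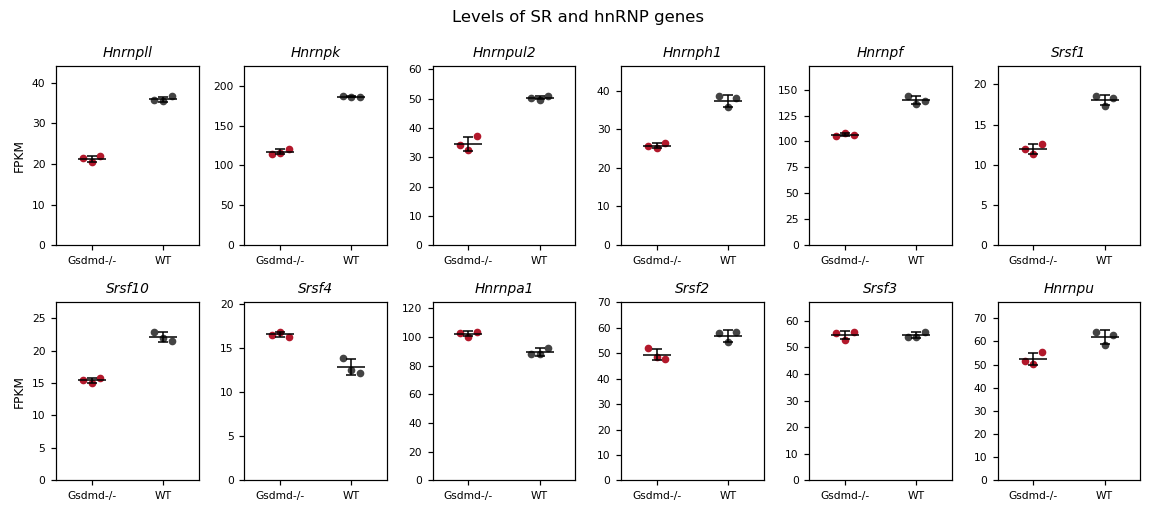
FPKM of 12 SR and hnRNP genes in each Gsdmd-/- (red) and WT (grey) sample, with the mean and SD of 3 samples, each panel on its own axis from 0. The Hnrnpk samples are at 115 to 121 FPKM in Gsdmd-/- and 186 to 187 FPKM in WT, whereas the Srsf3 samples overlap.

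The split between the groups ran alongside transcript length. Median annotated transcripts were 1060 bases for the snRNP and Lsm genes and 2320 bases for the SR and hnRNP genes. Of the 13 splicing genes of up to 1000 bases, 12 rose and 0 fell, against 85.7% rising and 4.32% falling among all genes of that length. Between 1000 and 2000 bases 13 of 19 rose and 3 fell (66.0% and 13.4% of all genes), between 2000 and 3000 bases 7 of 23 rose and 9 fell (39.0% and 31.9%), and above 3000 bases 1 of 10 rose and 7 fell (15.1% and 62.6%). In each length class the median log2 change of the splicing genes was near that of all genes, at 0.46 against 0.52, 0.27 against 0.29, −0.04 against 0.04 and −0.34 against −0.27 from short to long. These medians pool the 3 groups, so they do not show how the groups differed within a class. The 3 falls between 1000 and 2000 bases were those of Hnrnpa2b1, Srsf2 and Srsf5, all SR or hnRNP genes. Hnrnpa1, Srsf7 and Srsf9 of the same group and class rose. With the trend removed, the Spearman correlation with length was −0.19 over the 65 genes and −0.03 over all genes. The medians of the snRNP and Lsm genes and of the SR and hnRNP genes then stood at 0.24 and −0.16, against 0.01 over all genes. What the trend comes from was not tested.

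**Figure D4:**
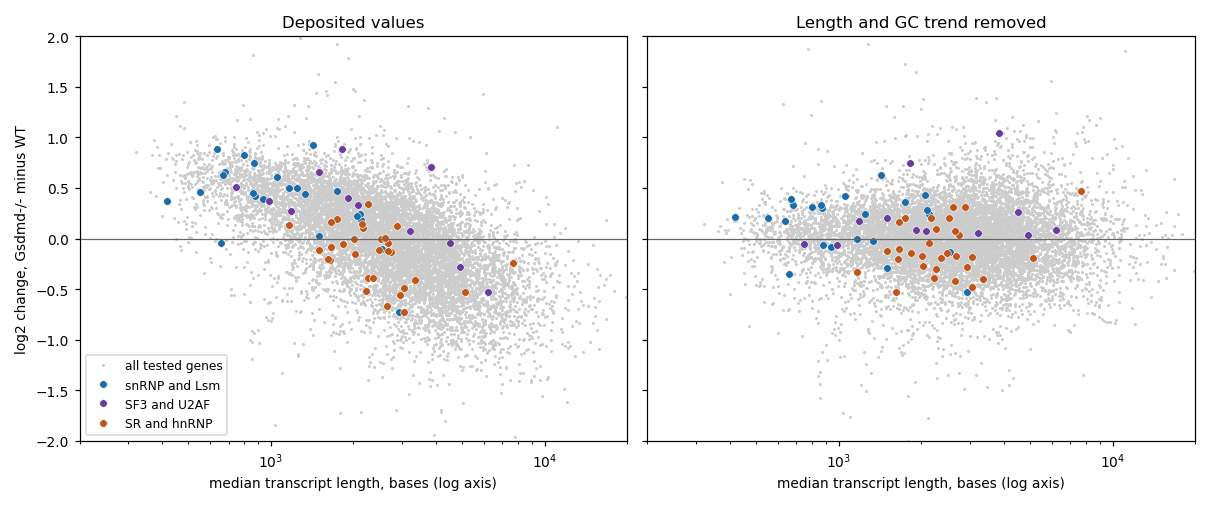
Log2 change (Gsdmd-/- minus WT) against median annotated transcript length in bases (log axis) for all tested genes with a length (grey) and the splicing genes by group (coloured), for the deposited values (left) and after removal of the length and GC trend (right), without genes beyond the axes. The downward slope on the left (Spearman −0.62 over 9852 genes) is −0.03 on the right.

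Other parts of the splicing machinery, which carry other symbols, were counted in the same fits. Of all tested genes 40.6% rose and 36.9% fell, or 31.3% and 30.5% with the trend removed. Of 16 U1, U5 and tri-snRNP proteins 10 rose and 3 fell (9 and 1 with the trend removed). Ppih, a cyclophilin of the tri-snRNP, rose by 0.69, with 22.6 ± 1.35 FPKM in Gsdmd-/- and 13.7 ± 0.472 FPKM in WT samples (SD, n = 3 each), and Snrnp27 rose by 0.47. The large U5 proteins Snrnp200 (−0.44), a helicase, and Prpf8 (−0.36), the core scaffold, fell and did not pass with the trend removed. Of 18 proteins of the Prp19 complex and the catalytic steps 13 rose and 2 fell (14 and 3 with the trend removed), with rises of Snw1 (0.41) and Syf2 (0.45) and falls of Cdc40 (−0.55) and Aqr (−0.53). Of 9 exon junction complex genes 6 rose and 1 fell (4 and 0 with the trend removed), led by the core pair Eif4a3 (0.60) and Rbm8a (0.55), and the fall was that of Pnn (−0.36, or −0.02 with the trend removed).

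Genes that serve snRNP biogenesis and the minor spliceosome were also counted, to be read against the same shares of all tested genes. Of 15 tested genes of the SMN complex, Sm methylation and snRNP transport 7 rose and 2 fell (6 and 1 with the trend removed). Phax, the export adaptor of snRNAs, rose by 0.66, with 11.6 ± 0.46 FPKM in Gsdmd-/- and 7.02 ± 0.435 FPKM in WT samples (SD, n = 3 each), and Smn1, the assembly factor, by 0.40, though Smn1 was at −0.08 with the trend removed. Strap, a partner of the SMN complex, fell by 0.21 and stood at −0.02 with the trend removed, and Tgs1, which makes the trimethyl cap of snRNAs, fell by 0.26 but rose by 0.22 with it removed. Of 9 minor spliceosome genes 4 rose and 1 fell (3 and 2 with the trend removed), among them Snrnp25 (0.77) and Zcrb1 (0.45) upward and Rnpc3 (−0.51) downward. Of 9 spliceosome helicases 3 rose and 3 fell (6 and 1 with the trend removed), with Ddx39b, which prepares U2 binding, at 136 ± 3.06 FPKM in Gsdmd-/- and 94.1 ± 2.60 FPKM in WT samples (SD, n = 3 each) and Ddx41 up by 0.67. Dhx15 fell by 0.68 and by 0.44 with the trend removed, and Ddx46 fell by 0.30 but rose by 0.21 with it removed.

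Splicing regulators outside the SR and hnRNP symbols had more falls than rises. Of 38 SR-related and other splicing regulators 9 rose and 22 fell, with a median log2 change of −0.22 (7 and 17 with the trend removed, median −0.04). Over all tested genes 40.6% rose and 36.9% fell. The list had a median annotated transcript of 3080 bases, and above 3000 bases 15.1% of all genes rose and 62.6% fell. Qk, the quaking protein of the STAR family, fell by 1.03, with 16.1 ± 0.358 FPKM in Gsdmd-/- and 34.1 ± 1.27 FPKM in WT samples (SD, n = 3 each), and Ptbp3, a polypyrimidine tract binding protein, by 0.96. Both fell with the trend removed, by 0.35 and 0.67. Srrm2, a large spliceosome and speckle protein, rose by 0.72 and Luc7l3, a U1-associated protein, by 0.49, and both rose more with the trend removed, by 1.12 and 0.87. Of 10 kinases listed as linked to SR proteins 3 rose and 3 fell (4 and 2 with the trend removed). Cdk11b (0.63) and Clk3 (0.40) went upward and Cdk12 (−0.87) and Prpf4b (−0.80) downward.

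**Figure D5:**
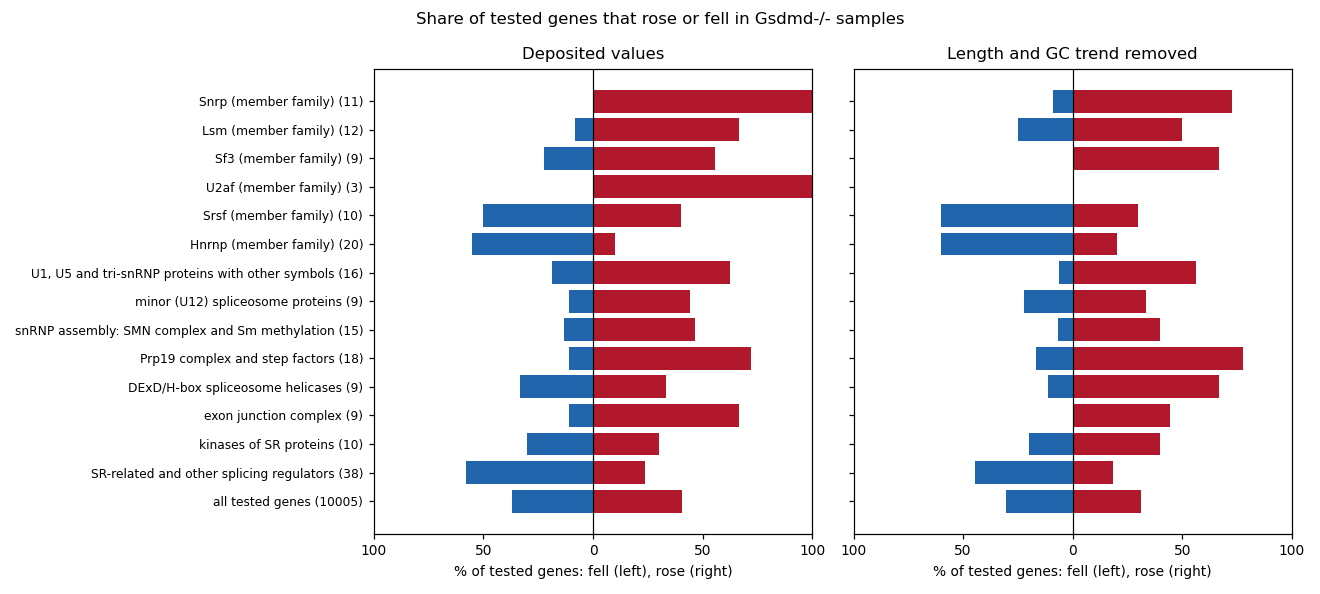
Percent of tested genes that rose (red, right of 0) or fell (blue, left of 0) in Gsdmd-/- samples in each gene family and list, with the number tested in brackets, for the deposited values (left) and after removal of the length and GC trend (right). The lowest bar gives all tested genes, of which 40.6% rose and 36.9% fell on the deposited values.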

How the data were processed

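Per the labels' protocols, RNA of sorted colon macrophages from 3 Gsdmd-/- and 3 WT samples was sequenced with a BGISEQ-500. The submitters' processing notes list Bowtie2 (2.2.5) and the build GRCm38.p6. How alignments became gene values, with which annotation, strand setting or filter, is not given in the sources used here. For each gene and sample the authors deposited 1 normalized value, and these were read as FPKM because no header states the unit and the samples have unequal sums.

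Log2(FPKM + 1) values were tested with limma 3.58.1 (trend and robust settings, R 4.3.3) in genes that reached 1 FPKM in 3 or more of the 6 samples, with two-sided p-values adjusted by Benjamini-Hochberg over all 10005 genes and a threshold of 0.05. The fits were checked on simulated data into which a length and GC trend had been built, and that trend led most unchanged genes to be called until it was removed. This is a check of the code only, and how many calls in the measured samples come from such a trend was not tested. GENCODE M21 gave transcript length and GC content for 9852 tested genes (98.5%), and the smooth trend on both was fitted per sample with mgcv 1.9.3. Gene coordinates and promoters are from RefSeq in GRCm38.p6, which holds all 69 genes. Copies were sought with BLAST 2.17.0 (at least 95% identity, 200 bases and 80% of the copy) and were found for 23 genes, the tables listing Gm14277 (a copy of Snrpd1) and Snurf (which matches Snrpn), and 26 genes share exon bases with another gene.

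The genes and the lists were chosen with earlier results of these data known, so lists are described by counts and medians, without a test. Values of each sample are given for the 3 largest rises and 3 largest falls past the threshold in each symbol family and for genes that passed in opposite directions in the 2 fits, and others named with sample values (Snrpb, Hnrnpf, Lsm8 and those that failed the filter) were added after their values were seen. Of each other list, up to 2 genes in each direction with the smallest p are named. Alternatives were another pseudocount, other filters and scalings, the trend removal, a replicate block, another variance model and leaving out each sample.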

Additional observations from a re-analysis of the deposited data

How the results depend on the processing

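Changes of pseudocount, filter, variance model and replicate block reversed no splicing gene, though leaving out the filter on low values and limma without trend and robust settings each ended the calls of Hnrnpm and Srsf5 (−0.11 each), and TPM and the removal of the length and GC trend reversed some; the cause was not tested. The replicate numbers do not pair the samples (correlations of deviations of −0.082, 0.132 and 0.014 for equal numbers), and with the replicate block 7801 genes were called in place of 7752, with 20 snRNP and Lsm, 22 SR and hnRNP and 10 SF3 and U2AF genes as before and no splicing gene's call changed. On the TPM scale 2498 genes rose and 5104 fell, the snRNP and Lsm falls came to 4, the SR and hnRNP rises to 1 and the SF3 and U2AF falls to 4, and Hnrnpa1 (−0.03), Hnrnpl (−0.08), Lsm1 (−0.18), Lsm12 (−0.04), Sf3b2 (−0.15), Srsf11 (−0.09), Srsf3 (−0.22), Srsf7 (−0.05) and Srsf9 (−0.09) changed sign. With the trend removed, with or without the block, snRNP and Lsm falls came to 4, SF3 and U2AF calls to 6 and falls to 0, and Hnrnpc (0.20), Hnrnpdl (0.03), Hnrnpl (−0.04), Hnrnpu (0.47), Lsm1 (−0.29), Lsm10 (−0.06), Sf3a1 (0.03), Sf3b1 (0.08), Sf3b3 (0.26), Snrpa (−0.02), Snrpb (−0.00465), Snrpc (−0.08), Srsf9 (−0.33), U2af1 (−0.06) and U2af1l4 (−0.05) changed sign. Holding length to the RefSeq gene span, an alternative chosen after seeing the data, gave the same of these counts, with Hnrnpc at 0.21, Snrpb at −0.00225, Hnrnpu 0.46 and Sf3b3 0.27. Medians under TPM, quantile, median-of-ratios scaling and trend removal were 0.240, 0.399, 0.413 and 0.241 for snRNP and Lsm, −0.333, −0.172, −0.149 and −0.157 (span −0.158) for SR and hnRNP, and 0.130, 0.280, 0.310 and 0.084 (span 0.082) for SF3 and U2AF genes. Leaving out 1 sample gave −0.139 to −0.079 for SR and hnRNP and 0.309 to 0.368 for SF3 and U2AF genes. Quantile scaling ended the calls of Hnrnpa1 and Hnrnpl (0.07 each) and median-of-ratios scaling that of Srsf11 (0.09). Quantile scaling added falls of Hnrnpa3 (−0.18), Hnrnpab (−0.16) and Hnrnpc (−0.09), and median-of-ratios scaling those of Hnrnpa3 (−0.11) and Hnrnpr (−0.15). Without a change of sign, TPM added falls of Hnrnpa0, Hnrnpa3, Hnrnpab, Hnrnpc, Hnrnpd, Hnrnpr, Lsm14b, Lsm8 and Sf3b3. Likewise, trend removal added falls of Hnrnpa0, Hnrnpab, Hnrnpd and Lsm8 and rises of Hnrnph3 and Srsf3.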
